A study of Mus musculus with 10 samples.

Results

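Integrins are cell surface receptors made of one α and one β subunit, and they hold cells to the matrix or to other cells. Laminins are secreted trimers of one α, one β and one γ chain that assemble in the basement membrane, the sheet under epithelia and around vessels, where several integrins bind them. In the kidney, integrin α3β1 is known to hold podocytes and tubule cells on their basement membrane, while the β2 and β7 integrins are carried by leukocytes and bind adhesion molecules on vessels and epithelium.

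The genes were chosen by name from the kidney cortex RNA-seq values of the series, as those whose mouse symbol begins with Itga, Itgb, Lama, Lamb or Lamc followed by a digit, together with Itgal, Itgam, Itgad, Itgae and Itgav. The rule found 40 of the 21792 genes in the files, and 39 are described. Of these, 26 encode integrin subunits, 10 encode laminin chains, and 3 (Itgb1bp1, Itgb1bp2 and Itgb3bp) encode proteins that are only named after an integrin. The cortex came from 4 sham mice, which received PBS, and 6 mice with aristolochic acid nephropathy (AAN), which received aristolochic acid (5 mg/kg) as a single intraperitoneal injection. Kidneys were taken at day 28 in both groups, the labels give every mouse the genotype WT, and the methods of the study describe the model in male C57BL/6 mice aged 8 weeks. Aristolochic acid is a plant toxin taken up by the proximal tubule, and the model is used to study tubular injury and fibrosis. Each mouse gave 1 library and is named here by the tag in its label (B607, B634, B636 and H249 for sham, and A483, B614, B630, B639, B642 and B666 for AAN).

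Values are FPKM, fragments scaled to gene length and library depth, so levels of different genes can be set side by side. The depth behind them, read back from the steps between low values, was 15.8 to 17.5 M fragments in sham mice and 13.4 to 16.5 M in AAN mice. Genes of the mitochondrial genome made up 39.5% to 61.4% of all FPKM in sham mice against 21.4% to 55.0% in AAN mice. Over the 17129 genes tested, the median log2 fold change, AAN against sham, was 0.75, and each change below is best read against that shift. With the limits of the study (adjusted p of at most 0.05 and a change of at least 2-fold), 35.8% of genes tested were higher in AAN mice and 3.43% were lower. Proximal tubule markers were lower (6 of 8), with a summed level of 20727 to 35296 FPKM in sham mice and 1124 to 3372 FPKM in AAN mice. Kap made up most of that sum, and the other 7 genes summed to 1937 to 4042 FPKM in sham mice and 562 to 2090 FPKM in AAN mice, where B614 alone passed the lowest sham mouse. The labels call the tissue renal cortex cells, and the summed level of 8 collecting duct and distal tubule markers was 706 to 1982 FPKM in sham mice and 333 to 2636 FPKM in AAN mice, with B614 the highest mouse. Because the libraries are bulk cortex, more cells of a type and more RNA per cell cannot be told apart in any result that follows.

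Of the 39 genes, 36 had a mean level of 0.1 FPKM or more across the 10 mice and were tested. Itgad, Itgb2l and Itgb1bp2 were below it, while Itgam, Itga2 and Itga11 had a mean under 0.1 FPKM in sham mice and passed through their AAN values. Among the 36 genes tested, 21 were higher in AAN mice and 1, Lamc3, was lower, beside the 35.8% and 3.43% of all genes. The same 2 counts were found with the libraries set to an equal FPKM total without mitochondrial genes, where 36.6% and 3.24% of all genes were called. By the adjusted p alone, 25 were higher and 1 was lower, beside 55.4% and 6% of all genes tested. In 21 genes every AAN mouse lay above every sham mouse, which was also true of 40.3% of all genes tested, and in none did every AAN mouse lie below every sham mouse (3.25% of all genes tested). The leukocyte subunits were set apart from the rest by size. All 6 that were tested were higher, with log2 fold changes of 3.27 to 5.25 and a median of 3.77. In the 9 epithelial genes the median was 1.47 and 5 were higher, and in the 12 stromal and vascular genes the median was 0.87, with 6 higher and 1 lower. These classes follow textbook expression but were formed with earlier results of these data known, and many members are made by more than 1 cell type. Scaling the libraries by the median of ratios moved the median of all genes to 0.06 and those of the 3 classes to 3.12, 0.71 and 0.21. With quantile normalization the median of all genes was -0.10 and the class medians were 2.72, 0.43 and -0.32, so that the direction of the stromal and vascular median turned.

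**Figure D1:**
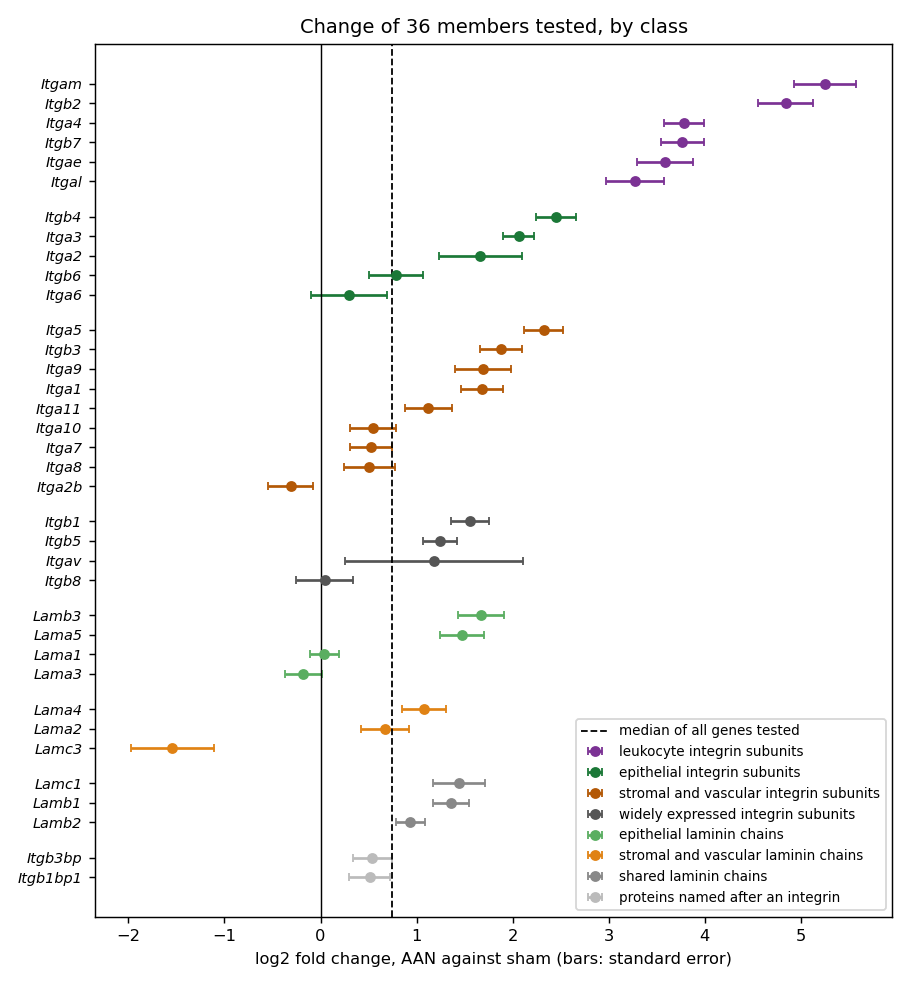
Log2 fold change of each of the 36 genes, AAN (n = 6) against sham (n = 4), on the log2(FPKM + 0.1) scale, grouped and coloured by class, with the standard error as a bar. The solid line marks no change and the dashed line the median of all genes tested, 0.75. The 6 leukocyte subunits lie at 3.27 or above, beyond every gene of the other classes, and Lamc3 lies at -1.54.

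Promoter sequence was available in the RefSeq table (build GRCm38.p6) for 25 of the 39 genes. The 250 bases upstream of the start are printed for 3 leukocyte subunits that rose together and for 2 genes from other classes that rose less, a fibronectin receptor subunit and a laminin chain. Capitals mark GAGGAA or its reverse complement TTCCTC, the core letters bound by PU.1, a transcription factor of myeloid and B cells. The windows are chr7:128062390-128062639 (+) for Itgam, chr2:79255176-79255425 (+) for Itga4, chr15:102231936-102232185 (-) for Itgb7, chr15:103366792-103367041 (-) for Itga5 and chr2:180225860-180226109 (-) for Lama5, each written 5′ to 3′ on the strand of its gene.
Itgam: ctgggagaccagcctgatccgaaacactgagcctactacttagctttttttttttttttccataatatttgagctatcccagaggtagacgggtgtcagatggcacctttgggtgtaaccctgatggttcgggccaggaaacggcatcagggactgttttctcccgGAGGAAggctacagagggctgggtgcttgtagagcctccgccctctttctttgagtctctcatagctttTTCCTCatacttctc
Itga4: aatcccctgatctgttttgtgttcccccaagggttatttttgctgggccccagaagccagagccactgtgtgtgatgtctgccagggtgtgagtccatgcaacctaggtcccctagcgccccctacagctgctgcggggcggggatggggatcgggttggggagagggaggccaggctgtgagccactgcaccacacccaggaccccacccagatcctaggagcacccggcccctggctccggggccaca
Itgb7: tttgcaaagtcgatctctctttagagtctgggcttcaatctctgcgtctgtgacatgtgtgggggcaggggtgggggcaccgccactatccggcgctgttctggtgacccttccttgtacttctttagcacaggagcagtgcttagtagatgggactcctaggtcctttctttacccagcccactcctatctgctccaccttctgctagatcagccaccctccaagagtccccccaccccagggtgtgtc
Itga5: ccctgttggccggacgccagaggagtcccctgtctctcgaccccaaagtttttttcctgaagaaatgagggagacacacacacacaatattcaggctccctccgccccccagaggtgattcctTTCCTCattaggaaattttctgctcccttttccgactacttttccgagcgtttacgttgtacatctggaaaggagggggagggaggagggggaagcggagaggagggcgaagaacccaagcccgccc
Lama5: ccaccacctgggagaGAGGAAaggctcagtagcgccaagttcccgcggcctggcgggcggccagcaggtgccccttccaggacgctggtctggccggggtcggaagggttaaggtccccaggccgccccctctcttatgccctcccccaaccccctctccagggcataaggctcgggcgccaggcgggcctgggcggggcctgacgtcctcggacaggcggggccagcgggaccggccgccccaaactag
Itgam held GAGGAA on either strand, with the first base of the match as printed 84 and 15 bases upstream of the start, while Itga4 and Itgb7 held none in this window. The motif was present in 12 of the 25 promoters, in 2 of 4 leukocyte, 2 of 5 epithelial and 4 of 8 stromal and vascular genes, and in 23.3% of the 32851 promoters in the table. The leukocyte genes with it were Itgam and Itgb2l, which was too low to be tested. By family it was in 7 of 18 integrin subunits and 5 of 5 laminin chains. Some windows lay far from the start of the annotated gene, as in Lamb3 (94295 bases) and Lama2 (2816 bases). The AP-1 motif TGANTCA was in 0 of the 25 against 6.75% of all promoters, and the TEAD motif GGAATG was in 2 of the 25 (Itga10 and Itgb1) against 12.6%. Both strands were searched, and GAGGAA and GGAATG share the letters GGAA and so can overlap. A match describes these letters only, and no factor binding was measured.

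Leukocyte subunits were low in sham cortex, and the 6 that were tested all rose after aristolochic acid. Itgb2 encodes the β2 chain shared by LFA-1 and Mac-1, the integrins with which leukocytes hold to vessels and take up opsonized particles (chr10:77530252-77565708 in GRCm38). Its level was 1.58, 0.528, 1.08 and 1.38 FPKM in the sham mice and 23.1 to 47.5 FPKM in AAN mice, with a median of 33.6. The groups were far apart, with a log2 fold change of 4.84 ± 0.28 (SE, limma adjusted p = 1.79e-07). Only Itgb1 and Itgb5 had a higher mean level among integrin subunits in AAN mice. Itgb7, the β chain of the gut homing receptor α4β7 and of αEβ7, was at 1.19, 0.61, 1.26 and 1.02 FPKM in sham mice and at 11.3 to 20.5 FPKM in AAN mice, with a median of 14.3. It rose by 3.77 ± 0.23 on the log2 scale (adjusted p = 1.92e-07), again with no overlap between the groups.

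The α chains of the β2 integrins were compared with β2 and with one another within mice. Itgam encodes αM (CD11b), the α chain of Mac-1 on macrophages, monocytes and neutrophils (chr7:128062640-128118491 in GRCm38). It was at 0, 0.035, 0.101 and 0.109 FPKM in sham mice, where 3 fragments in the shallowest library would give 0.0404 FPKM, and at 2.94 to 10 FPKM in AAN mice, with a median of 6.00. Its log2 fold change was 5.25 ± 0.32 (adjusted p = 2.16e-07), a size that depends on the value of 0.1 added to each FPKM (2.69 with 1 added and 6.87 with 0.01 added). The gene model Gm49368 spans Itgam and holds 66.3% of its 50-base words, and its level was 0.0239 to 0.141 FPKM in sham mice and 0.0483 to 2.02 FPKM in AAN mice. How reads were divided between them is not stated, and with the FPKM of both summed (an alternative chosen after the data were seen) the log2 fold change was 4.89 ± 0.25. The mouse with the lowest Itgam, B642, had the highest Gm49368, and its summed value was 4.95 FPKM, next to 5.09 FPKM in B614.

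Itgal encodes αL (CD11a), the α chain of LFA-1 that is abundant on lymphocytes. Its level was 0.454, 0.141, 0.316 and 0.36 FPKM in sham mice and 2.36 to 5.33 FPKM in AAN mice, with a median of 3.94. It rose by 3.27 ± 0.30 (adjusted p = 3.04e-06), and no sham mouse reached an AAN mouse. Within a mouse, Itgal lay 1.38 to 1.68 log2 units under Itgb2 in sham mice and 2.09 to 3.74 units under it in AAN mice. The difference of Itgal minus Itgb2 thus fell by 1.57 ± 0.28 (exact two-sided permutation test over 210 splits, adjusted p = 0.0175 over 11 gene pairs). Such a difference within a mouse cancels the scale of its library except for the 0.1 added to each FPKM, which weighs on genes of low level. Itgam minus Itgal was -2.47 to -0.83 in sham mice against -0.83 to 1.76 in AAN mice, a difference of 1.98 ± 0.55 (exact permutation test, adjusted p = 0.0224), with an adjusted p of 0.0561 without sham mouse B607 and of 0.0952 with 1 added to each FPKM. The difference of Itgam minus Itgb2 changed by 0.41 ± 0.51 (exact permutation test, adjusted p = 0.477), but its sign depended on the value added, at -1.34 with 1 added (adjusted p = 0.0105) and 1.90 with 0.01 added (adjusted p = 0.0291). Since Itgam was at 0 FPKM in B607 and at 0.0350 FPKM in B634, under the floor of 3 fragments, neither difference that holds Itgam can be read from sham mice at these levels. Itgax, another α chain of β2 that the name rule leaves out and that was looked up after the values were seen, was at 0.369 to 0.894 FPKM in sham mice and 13.8 to 31.9 FPKM in AAN mice. Itgad, the gene of the αD chain of β2, was at 0 in 3 sham mice and at most 0.0366 FPKM in AAN mice, and Itgb2l, a gene resembling Itgb2, was at 0 in every sham mouse and at most 0.116 FPKM in AAN mice.

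Itgae encodes αE (CD103), which pairs with β7 and binds E-cadherin on epithelium, as on T cells resident in tissue. It was at 0.256, 0.188, 0.22 and 0.285 FPKM in sham mice and 2.36 to 6.15 FPKM in AAN mice, with a median of 4.25, and rose by 3.59 ± 0.29 (adjusted p = 1.19e-06). Itga4 encodes α4, which pairs with β1 in VLA-4 and with β7, and was at 0.183, 0.0809, 0.21 and 0.245 FPKM in sham mice and 2.94 to 4.16 FPKM in AAN mice, with a median of 3.75. It rose by 3.78 ± 0.21 (adjusted p = 1.47e-07) and had the narrowest range of the 6 subunits among AAN mice. In both genes the groups were apart. Itgae minus Itgb7 changed by -0.18 ± 0.31 (exact permutation test, adjusted p = 0.624), although with 1 added to each FPKM the change was -0.96 (adjusted p = 0.0349). Itgae overlaps Haspin on the opposite strand and Itga4 shares 7.32% of its 50-base words with Cerkl on the opposite strand, and strand use is not stated.

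**Figure D2:**
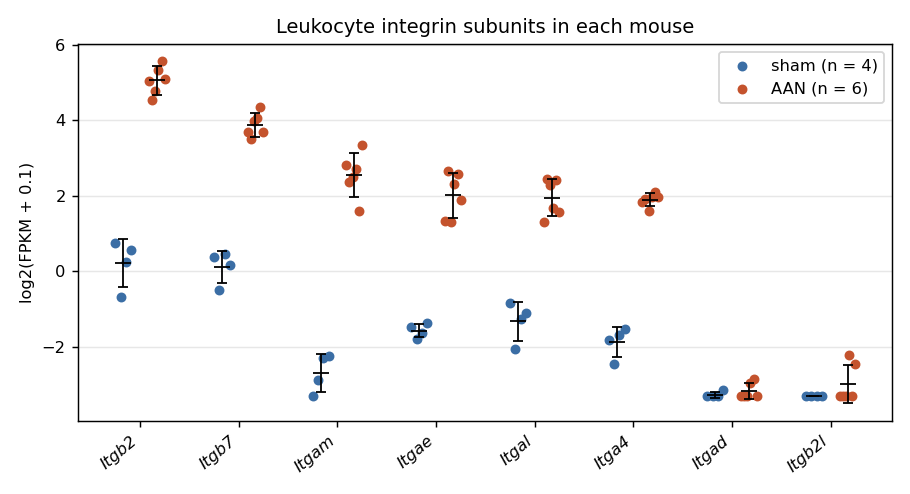
Level of the 8 leukocyte integrin subunits in each mouse, as log2(FPKM + 0.1), with sham mice (n = 4) in blue and AAN mice (n = 6) in red, and the mean ± SD in black. The groups are apart in the 6 subunits tested, and Itgad and Itgb2l stay near the lowest value the scale allows.

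The 6 subunits did not rank the AAN mice alike. B614 had the lowest Itgb2 (23.1 FPKM) and Itgb7 (11.3 FPKM) but the highest Itgae (6.15 FPKM) and Itgal (5.33 FPKM), whereas B642 had the highest Itgb2, Itgb7 and Itga4 and the lowest Itgam. Markers of leukocytes in general moved with the group. The summed level of 8 such genes was 8.87 to 16.3 FPKM in sham mice and 175 to 535 FPKM in AAN mice, and all 8 were higher. That sum was lowest in B614 among AAN mice, although Ptprc, Laptm5 and Lcp1 were lowest in B639, B630 and A483. All 8 macrophage markers (38.5 to 60.8 FPKM against 638 to 2062 FPKM) and all 8 T cell markers (1.34 to 5.03 FPKM against 100 to 260 FPKM) were higher too. Of the 5 B cell markers 3 were tested and higher (0.673 to 1.28 FPKM against 3.82 to 9.53 FPKM). Of the 6 neutrophil markers 4 were tested and higher (0.228 to 2.11 FPKM against 2.69 to 16.0 FPKM), with the groups apart in 1. The neutrophil gene Ly6g was not tested. It was at 0 in every sham mouse and at most 0.143 FPKM in AAN mice, where only A483 and B642 held any, and Mpo had no value. The part of these cells in the rise of the integrin genes was not tested. The rise of Itgb2 lay within those of the 8 general leukocyte markers, whose log2 fold changes ran from 3.37 in Lcp1 to 5.15 in Rac2 with a median of 4.43. Set against Ptprc alone, the CD45 gene at 3.96, the difference of Itgb2 minus Ptprc was 1.21 to 2.07 in sham mice against 2.23 to 3.25 in AAN mice, a shift of 0.88 ± 0.24 (exact permutation test, adjusted p = 0.0175).

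Of the 5 epithelial integrin subunits, 3 were higher, beside 35.8% of all genes tested. Itga3 encodes α3, the laminin receptor subunit of podocytes and tubules, and was at 6.59, 4.65, 5.35 and 5.52 FPKM in sham mice and 17.8 to 28.1 FPKM in AAN mice, with a median of 24.1. It rose by 2.06 ± 0.16 on the log2 scale (adjusted p = 8.21e-07), and the groups were apart. Itgb4 encodes β4, the hemidesmosome subunit that pairs with α6, and was at 0.6246, 0.392, 0.456 and 0.553 FPKM in sham mice and 2.38 to 4.00 FPKM in AAN mice, with a median of 3.39. It rose by 2.45 ± 0.21 (adjusted p = 1.64e-06), also with no overlap.

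Itga6 encodes α6, the partner of β4 in hemidesmosomes and of β1 elsewhere. It was at 9.41, 2.56, 2.76 and 3.69 FPKM in sham mice and 3.17 to 10.1 FPKM in AAN mice, with a median of 4.53. The groups overlapped, and the log2 fold change was 0.30 ± 0.40 (adjusted p = 0.53), a sign that turned under the median of ratios (-0.45) and quantile normalization (-0.49). Sham mouse B607 and AAN mouse B614 were the highest of their groups, and B614 was also the highest AAN mouse in the summed level of 6 podocyte markers (44.3 to 86.0 FPKM in sham mice and 50.4 to 131 FPKM in AAN mice, 2 of 6 higher). All 8 injured tubule markers were higher (90.5 to 115 FPKM and 526 to 955 FPKM). The part of these cells in the epithelial integrin genes was not tested. Itga6 minus Itga3, the laminin-binding α chains against each other, fell by 1.77 ± 0.45 (exact permutation test, adjusted p = 0.0291), from -0.93 to 0.51 in sham mice to -2.88 to -0.81 in AAN mice. The groups overlapped, as B614 lay within the sham range, and without B607 the change was -1.44 (exact permutation test, adjusted p = 0.0582). Itgb6 encodes β6, an epithelial subunit that pairs with αv and is known to activate TGF-β, and was at 9.16, 3.01, 4.47 and 7.35 FPKM in sham mice and 8.02 to 13.5 FPKM in AAN mice, with a median of 9.04. The groups overlapped, and its log2 fold change of 0.79 ± 0.28 (adjusted p = 0.0299) was under 2-fold and 0.04 above the median of all genes. Itgb6 minus Itgb4 was 2.66 to 3.68 in sham mice against 1.04 to 1.92 in AAN mice, a fall of 1.67 ± 0.26 (exact permutation test, adjusted p = 0.0175). Itga2, a collagen and laminin receptor subunit, was at 0.0949, 0, 0 and 0.0144 FPKM in sham mice and 0.0612 to 0.71 FPKM in AAN mice. It was higher (1.66 ± 0.43, adjusted p = 0.00581) although 1 AAN mouse lay within the sham range. The call was lost with 1 added to each FPKM (0.37) and with quantile normalization (0.98, adjusted p = 0.122). With 0.01 added the change was 3.62. For Itga2, 3 fragments in the shallowest sham library would give 0.0266 FPKM, and sham mice other than B607 were under that.

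Of the 9 stromal and vascular integrin subunits, 5 were higher, beside 35.8% of all genes tested. Itga5 encodes α5 of the fibronectin receptor and was at 2.16, 1.58, 2.46 and 2.42 FPKM in sham mice and 7.20 to 13.6 FPKM in AAN mice, with a median of 11.6. It rose by 2.32 ± 0.20 (adjusted p = 1.87e-06), a rise that also passed both limits under each scaling of the libraries. Itga1 encodes α1, a collagen receptor subunit of mesangium and vessels, and was at 7.19, 4.22, 3.64 and 4.46 FPKM in sham mice and 11.4 to 19.6 FPKM in AAN mice, with a median of 15.3. It rose by 1.68 ± 0.22 (adjusted p = 4.76e-05). Itga9 encodes α9, a receptor subunit for tenascin and osteopontin, and was at 1.62, 0.991, 0.595 and 0.838 FPKM in sham mice and 1.86 to 4.94 FPKM in AAN mice, with a median of 3.56. It rose by 1.69 ± 0.29 (adjusted p = 0.000409). In these 3 genes no sham mouse reached an AAN mouse, but Itga1 and Itga9 fell short of 2-fold under the median of ratios (0.92 and 0.98) and quantile normalization (just under 2-fold for Itga1 and 0.64 for Itga9).

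The other members of the class were Itgb3, Itga11, Itga7, Itga8, Itga10 and Itga2b. Itgb3, whose β3 chain pairs with αv and with the platelet subunit αIIb, was at 0.112 to 0.251 FPKM in sham mice and 0.642 to 1.16 FPKM in AAN mice (1.88 ± 0.22, adjusted p = 1.82e-05). Itga11, a collagen receptor subunit of fibroblasts, was at 0.0106 to 0.0905 FPKM in sham mice and 0.154 to 0.228 FPKM in AAN mice (1.12 ± 0.25, adjusted p = 0.00196). Both passed the limits without overlap. Each lost the call when 1 was added to each FPKM (0.71 and 0.20) and with quantile normalization (0.63 and 0.13). Itga11 also lost it under the median of ratios (0.82), and its change was 2.47 with 0.01 added. For Itga11, 3 fragments in the shallowest sham library would give 0.0381 FPKM, and sham mice other than H249 were under that. The laminin receptor subunit Itga7 (0.53), the mesangial subunit Itga8 (0.51) and the cartilage subunit Itga10 (0.55) had adjusted p from 0.0509 to 0.119, and all 3 turned negative under the median of ratios and quantile normalization. The αIIb gene Itga2b was at 0.482 to 0.756 FPKM in sham mice and 0.332 to 0.708 FPKM in AAN mice (-0.31 ± 0.24, adjusted p = 0.265) and was called lower with quantile normalization alone (-1.52). It stood beside platelet markers of which 1 of 5 tested was higher, Pf4, which macrophages can also make. All 7 fibroblast markers were higher (summed level 14.6 to 19.4 FPKM in sham mice and 92.9 to 206 FPKM in AAN mice), and 0 of 7 endothelial markers passed both limits (72.8 to 114 FPKM and 128 to 147 FPKM), with 3 passing the adjusted p alone. The part of either cell type in these changes was not tested.

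Itgb1 encodes β1, the partner of most α chains, and was the most abundant member in both groups. It was at 36.5, 27.0, 23.7 and 27.1 FPKM in sham mice and 61.9 to 113 FPKM in AAN mice, with a median of 83.6, and rose by 1.56 ± 0.20 (adjusted p = 4.23e-05). Itgb5 encodes β5, a vitronectin receptor subunit that pairs with αv, and was at 26.9, 17.8, 17.9 and 24.1 FPKM in sham mice and 38.5 to 62.0 FPKM in AAN mice, with a median of 51.4. It rose by 1.24 ± 0.18 (adjusted p = 0.0001). The groups were apart in both, although neither reached 2-fold under the median of ratios (0.79 and 0.48), nor did Itgb5 with quantile normalization (0.91). Itgb8, whose β8 chain pairs with αv, was at 3.69 to 6.72 FPKM in sham mice and 2.64 to 8.22 FPKM in AAN mice. It did not pass the test (0.04 ± 0.29, adjusted p = 0.907), and its sign turned under the median of ratios (-0.71) and quantile normalization (-0.75).

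Itgav, the α chain that β3, β5, β6 and β8 share, varied widely within both groups. It was at 6.31, 0.215, 3.93 and 0.76 FPKM in sham mice and at 1.79, 17.7, 11, 1.38, 1.81 and 2.31 FPKM in A483, B614, B630, B639, B642 and B666. The high mice were B607 and B636 among sham and B614 and B630 among AAN, and the log2 fold change of 1.19 had a standard error of 0.93 (adjusted p = 0.28). Among its β partners, Itgb6 ran from 3.01 to 9.16 FPKM in sham mice with B607 highest. Itgb8 ran from 2.64 to 8.22 FPKM in AAN mice with B614 highest, and Itgb5 from 17.8 to 26.9 FPKM in sham mice. The partners did not follow Itgav in B630, which was the lowest AAN mouse in Itgb3 (0.642 FPKM), Itgb5 (38.5 FPKM), Itgb6 (8.02 FPKM) and Itgb8 (2.64 FPKM). Itgav has several annotated transcripts, and the deposited value does not say to which of them the fragments were given.

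Within each mouse the make-up of the β chains changed. Itgb2 took 0.991% to 2.10% of the summed FPKM of Itgb1 to Itgb8 in sham mice against 13.1% to 20.7% in AAN mice, and Itgb7 went from between 1.15% and 2.39% to between 5.48% and 9.93%. The share of Itgb5 was 32.5% to 36.7% in sham mice against 22.4% to 28.4% in AAN mice, and that of Itgb8 was 6.08% to 8.11% and 1.66% to 4.66%. Shares of Itgb1 overlapped (41.3% to 50.7% in sham mice against 37.1% to 48.1% in AAN mice). Over the 26 integrin subunits, the leukocyte class took 2.21% to 4.20% of the summed FPKM in sham mice against 19.7% to 27.3% in AAN mice. Itgb2 minus Itgb1 was -5.43 to -4.20 in sham mice against -1.72 to -0.84 in AAN mice, a rise of 3.29 ± 0.32 (exact permutation test, adjusted p = 0.0175). Shares depend on each other, since a rise of one lowers the rest.

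**Figure D3:**
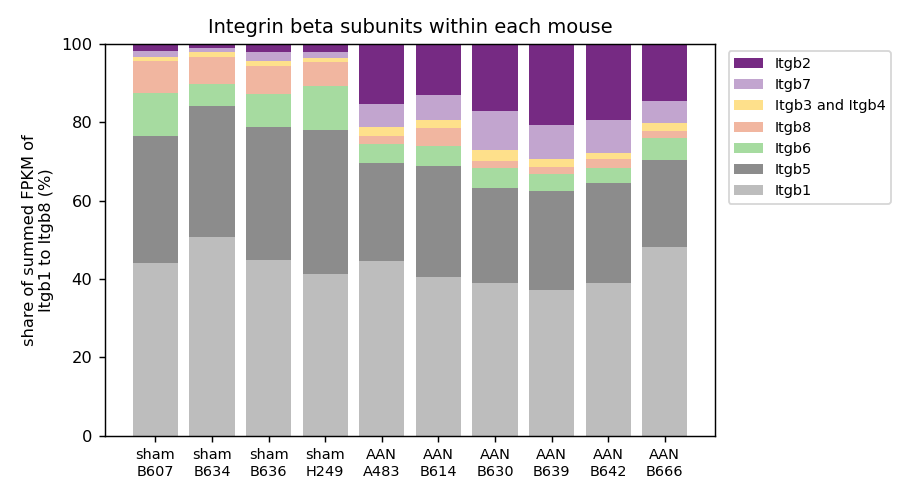
Share of each integrin β subunit in the summed FPKM of Itgb1 to Itgb8 in each of the 10 mice, as a percent, with Itgb3 and Itgb4 drawn together. Itgb2 (dark purple) takes 13.1% to 20.7% in the 6 AAN mice and at most 2.10% in the 4 sham mice, while Itgb5 and Itgb8 take smaller shares in AAN mice.

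The 10 laminin chains described had a median log2 fold change of 1.003, with 5 higher and 1 lower, beside 35.8% and 3.43% of all genes tested. Lama5 encodes α5, the main α chain of mature glomerular and tubular basement membranes. It was at 9.12, 11.2, 13.8 and 9.28 FPKM in sham mice and 18.7 to 42.1 FPKM in AAN mice, with a median of 31.1. It rose by 1.47 ± 0.23 (adjusted p = 0.000189), with the groups apart, but by 0.71 under the median of ratios, short of 2-fold. Lama1, the α chain of the early tubular basement membrane, was at 3.23, 2.49, 3.22 and 2.56 FPKM in sham mice and 2.56 to 3.40 FPKM in AAN mice, with a median of 2.92. It overlapped between the groups (0.04 ± 0.15, adjusted p = 0.825) and so lay 0.71 below the median of all genes, and under the median of ratios and quantile normalization its log2 fold change was negative (-0.70 and -0.84). Lama1 minus Lama5 fell by 1.43 ± 0.24 (exact permutation test, adjusted p = 0.0175), from -2.13 to -1.47 in sham mice to -3.71 to -2.63 in AAN mice. The share of Lama5 among the 5 α chains was 52.6% to 62.6% in sham mice against 66.5% to 83.2% in AAN mice. Lama3, the α chain of the hemidesmosome laminin of epithelia, was at 2.88 to 4.12 FPKM in sham mice and 2.40 to 4.34 FPKM in AAN mice (-0.18 ± 0.19, adjusted p = 0.437), and it was called lower with quantile normalization alone (-1.03).

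Lamb3 encodes β3, which joins the product of Lama3 in the laminin of hemidesmosomes. It was at 0.113 to 0.242 FPKM in sham mice and 0.581 to 1.25 FPKM in AAN mice (1.67 ± 0.24, adjusted p = 9.22e-05), though it fell short of 2-fold with quantile normalization (0.43) and with 1 added to each FPKM (0.59). The groups were apart. Lamb3 overlaps 4 other measured genes, among them Hsd11b1 and G0s2.

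The widely used chains Lamb1, Lamb2 and Lamc1 lay above sham in every AAN mouse. Lamb1, the β1 chain, was at 8.62, 4.82, 5.80 and 7.11 FPKM in sham mice and 13.4 to 20.3 FPKM in AAN mice, with a median of 16.7, and rose by 1.36 ± 0.18 (adjusted p = 6.31e-05). Lamc1, the γ1 chain of most laminins, was at 5.28, 1.64, 3.20 and 3.47 FPKM in sham mice and 7.19 to 11.5 FPKM in AAN mice, with a median of 8.30, and rose by 1.44 ± 0.27 (adjusted p = 0.000707). Lamb2, the β2 chain of the mature glomerular basement membrane, was at 8.26, 5.40, 6.34 and 7.35 FPKM in sham mice and 11.6 to 14.8 FPKM in AAN mice, with a median of 12.8. Its log2 fold change of 0.93 ± 0.15 (adjusted p = 0.000257) was under 2-fold, and Lamb1 and Lamc1 were under 2-fold with the median of ratios (0.60 and 0.69) and quantile normalization (0.75 and 0.65). Lamb1 and Lamb2 were near equal in sham mice, with Lamb1 minus Lamb2 at -0.16 to 0.06, and in AAN mice the difference was 0.11 to 0.67. The shift was 0.43 ± 0.10 (exact permutation test, adjusted p = 0.0175).

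Lamc3, a γ chain of low level here, was the only member called lower, and it is described although its mean was under 1 FPKM, a choice made after its values were seen. It was at 0.898, 0.798, 0.884 and 0.865 FPKM in sham mice and at 0.196, 0.281, 0.967, 0.132, 0.0559 and 0.198 FPKM in A483, B614, B630, B639, B642 and B666. Thus 5 AAN mice lay far under the sham mice and B630 lay above them, and the log2 fold change was -1.54 ± 0.43 (adjusted p = 0.00844) with B630 and -1.88 without it. The 2 mesenchymal α chains stood between. Lama4, the α4 chain of vessels, was at 0.244 to 0.577 FPKM in sham mice and 0.753 to 1.08 FPKM in AAN mice (1.07 ± 0.23, adjusted p = 0.00155). Its call was lost without sham mouse B634 (0.93), without B636 (just under 2-fold), under the median of ratios (0.44) and with 1 added to each FPKM (0.45), and with quantile normalization its sign turned (-0.18). Lama2, the α2 chain of muscle and mesangium, was at 0.562 to 1.07 FPKM in sham mice and 0.70 to 1.57 FPKM in AAN mice (0.67 ± 0.25, adjusted p = 0.0352, under 2-fold), with signs turned under both scalings (-0.02 and -0.53).

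**Figure D4:**
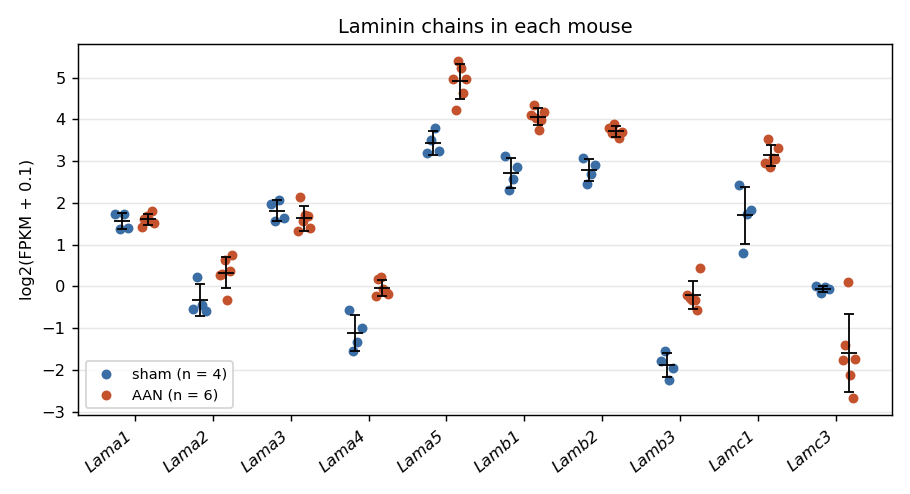
Level of 10 laminin chains in each mouse, as log2(FPKM + 0.1), with sham mice (n = 4) in blue and AAN mice (n = 6) in red, and the mean ± SD in black. Lama5 is the highest chain in AAN mice (18.7 to 42.1 FPKM) except in B614, where Lamb1 is higher (20.3 FPKM). Lama1 and Lama3 overlap between the groups, and Lamc3 is low in 5 AAN mice and at the sham level in B630.

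**Figure D5:**
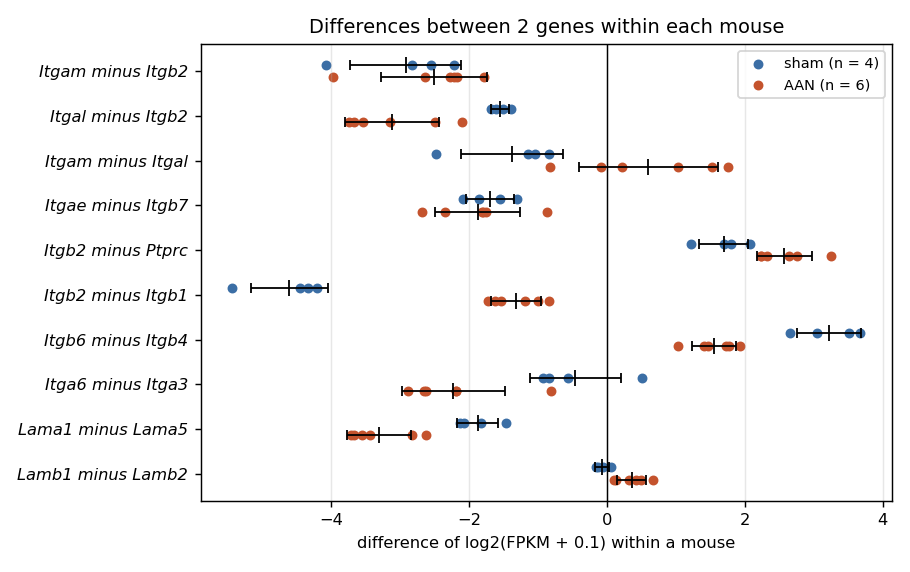
Difference of log2(FPKM + 0.1) between 2 genes within each mouse for 10 pairs, with sham mice (n = 4) in blue, AAN mice (n = 6) in red and the mean ± SD in black. The groups are apart for Itgb2 minus Itgb1 (-5.43 to -4.20 and -1.72 to -0.84) and overlap for Itgam minus Itgb2, Itgae minus Itgb7 and Itga6 minus Itga3.

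Of the 3 proteins named after an integrin, Itgb1bp1, which binds the β1 tail, had a log2 fold change of 0.51 ± 0.21 (adjusted p = 0.0557), and Itgb3bp, a centromere protein, had one of 0.54 ± 0.20 (adjusted p = 0.0364, under 2-fold). Both lay under the shift of all genes and turned negative under the median of ratios (-0.23 and -0.17) and quantile normalization (-0.39 and -0.61). Itgb1bp2, the muscle protein melusin, was at no more than 0.278 FPKM in any mouse.

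Genes that act with these receptors were also counted. Of 23 genes of the adhesion machinery inside the cell, 10 were higher and 1 was lower, near the 35.8% and 3.43% called over all genes tested. The largest changes above 5 FPKM were in Fermt3, the kindlin of blood cells, at 0.61 to 1.78 FPKM in sham mice and 16.8 to 33.3 FPKM in AAN mice (4.29 ± 0.28, adjusted p = 3.13e-07), and Apbb1ip, which recruits talin to integrins, at 0.152 to 0.222 FPKM and 2.95 to 6.97 FPKM (4.22 ± 0.23, adjusted p = 1.47e-07). Actn1, an actin cross-linker, rose by 2.97 ± 0.28 (adjusted p = 3.48e-06) and Zyx, a focal adhesion protein, by 1.67 ± 0.29 (adjusted p = 0.000391). Tln2, one of the talins that switch integrins on, was the gene that fell, by 1.14 ± 0.29 on the log2 scale (adjusted p = 0.0053), while the log2 fold change of Tln1 was 0.84, under 2-fold.

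On the side of the ligands, 5 of 8 counter-receptors of leukocyte integrins were higher, beside 35.8% of all genes tested. Vcam1, which α4β1 binds and which injured tubule cells also make, was at 0.828 to 1.18 FPKM in sham mice and 32.5 to 85.6 FPKM in AAN mice and rose by 5.49 ± 0.25 (adjusted p = 8.29e-08). Icam1, the ligand of LFA-1 and Mac-1, was at 6.61 to 9.29 FPKM and 44.9 to 110 FPKM and rose by 3.30 ± 0.24 (adjusted p = 5.66e-07), and F11r, the junction protein JAM-A, rose by 1.11 ± 0.20 (adjusted p = 0.000626). The ligand of αEβ7, Cdh1 (E-cadherin), had a log2 fold change of 0.72 (adjusted p = 0.0415), under 2-fold.

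Of the 20 matrix ligands, 19 were tested and 13 were higher, with 0 lower, beside 35.8% and 3.43% of all genes tested. The largest changes above 5 FPKM were in Tnc (tenascin-C, a ligand of α9), Col1a1, Col3a1 and Spp1 (osteopontin), with log2 fold changes of 4.62 ± 0.34, 4.41 ± 0.26, 4.17 ± 0.26 and 3.86 ± 0.30 (adjusted p of 6.14e-07, 1.77e-07, 2.3e-07 and 7.72e-07). Of the 10 laminin partners and other laminin receptors, 8 were higher and 0 were lower, beside the same shares of all genes. Agrn, the proteoglycan agrin, was at 5.89 to 9.54 FPKM in sham mice and 23.6 to 40.9 FPKM in AAN mice (2.08 ± 0.19, adjusted p = 2.77e-06). Bcam, the Lutheran receptor that binds the laminin α5 chain, was at 17.6 to 29.3 FPKM and 83.2 to 112 FPKM (2.05 ± 0.18, adjusted p = 1.64e-06). Plec, the hemidesmosome linker of β4, rose by 1.66 ± 0.20 (adjusted p = 2.51e-05) and Nid1, which links laminin to collagen IV, by 1.38 ± 0.18 (adjusted p = 5.65e-05). The median log2 fold change was 0.86 over the adhesion machinery, 1.55 over the counter-receptors, 1.81 over the matrix ligands and 1.34 over the laminin partners, beside 0.75 over all genes tested.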

How the data were processed

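RNA from the kidney cortex of 4 sham and 6 AAN mice was sequenced as paired-end libraries, 1 per mouse. The authors filtered reads for rRNA, adapters and quality, aligned them with Hisat2 2.0.4 to GRCm38.p4 and obtained FPKM from Stringtie 1.3.0, and the deposited values are these FPKM for 21792 Ensembl genes. The authors tested genes with edgeR, which needs counts. FPKM are not counts, so limma 3.58.1 in R 4.3.3 (trend, robust, two-sided) was used on log2(FPKM + 0.1), with no scaling between mice, for the 17129 genes whose mean was 0.1 FPKM or more. A fold change on this scale understates the change of low genes. The Benjamini-Hochberg adjustment of p-values covered every gene tested, and a call needed an adjusted p up to 0.05 with a 2-fold change, the limits of the study. Separate animals are given by their tags, no batch is given, and the tag letters (B in 3 sham and 5 AAN mice) are not explained.

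Differences between 2 genes within a mouse were tested for 11 pairs with an exact two-sided permutation test of the difference of means over 210 splits (smallest p 0.00476), adjusted over the pairs. The errors of these differences combine the SD of both groups. Depth was read from genes with 1 transcript, where 95.5% of values under 0.3 FPKM were whole fragments within 0.05. In genes with several transcripts this held for 13.1% to 14.9%, so counts were not recovered. Floors of 3 fragments cover counting error only. Symbols and positions came from GENCODE mouse release 21 (GRCm38), which names 21650 genes, and the annotation release and strand use of the authors are not given in the sources used here. Of the 36 genes tested and described, 10 overlap another measured gene and are uncertain to that extent. Sequences came from RefSeq.

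The members, classes, pairs and gene lists were chosen with earlier results of these data known. Of the genes found by the name rule, 1 is not reported here, nor is the pair that holds it, although both stayed in the tests and adjustments. Values of every mouse (for AAN the range and median) are given for the genes of the pairs and for up to 4 called genes per class with the largest change and a mean of 1 FPKM or more in the higher group. From each pathway list up to 4 called genes with a mean of 5 FPKM or more are named, and marker lists are given by counts and summed FPKM. Simulated data held 15168 genes, with 50 genes changed at each size. There, limma found 90.0% of log2 changes of 1.5, 88.0% of -1.5, 98.0% of 3 and 94.0% of -3, with 8 false calls. These rates were not given by level, so they do not show detection for members low in sham mice, such as Itgam and Itga2. Few genes changed in the simulation, while 35.8% of genes tested were called higher in these data. Its rates and false calls therefore cannot be carried over to the calls made here. Alternatives were pseudocounts of 1 and 0.01, a filter at 1 FPKM or none, the median of ratios, quantile normalization, an equal FPKM total without mitochondrial genes, limma without trend and robust, calls without the fold limit, leaving out each mouse, the B tags alone, and Itgam summed with Gm49368. Tables and figures were made in Python 3.11.15 (pandas 2.3.3, scipy 1.17.1, matplotlib 3.10.9).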

Additional observations from a re-analysis of the deposited data

Results flagged for a closer look

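Of 97 groups of 4 or 6 mice examined by Dixon's test, in which chance flags about 1 in 20 groups, 10 held a mouse that stood apart from the others of its group. Sham mouse B607 stood apart in Itga2 (0.0949 FPKM, others 0 to 0.0144), Itga6 (9.41 FPKM, others 2.56 to 3.69) and Itgb8 (6.72 FPKM, others 3.69 to 3.99). Sham mouse H249 stood apart in Itgad (0.0117 FPKM, others at 0) and Itga11 (0.0905 FPKM, others 0.0106 to 0.0235), and sham mouse B634 in Lama2 (1.07 FPKM, others 0.562 to 0.636). The Itgad value lay under the 0.0461 FPKM that 3 fragments would give in the shallowest sham library. Among AAN mice, B666 stood apart in Lamb3 (1.25 FPKM, others 0.581 to 0.76), B630 in Lamc3 (0.967 FPKM, others 0.0559 to 0.281), and B614 in Itgb3bp (1.03 FPKM, others 1.44 to 1.53) and in Itga6 minus Itga3 (-0.81 log2 units, others -2.88 to -2.18).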

How the results depend on the processing

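The 6 leukocyte subunits passed both limits under every setting run. The count of genes higher was 21, against 12 under the median of ratios and 11 under quantile normalization (20 to 23 with a mouse left out), where 19.0% and 14.9% of all genes tested were higher. The count lower was 1, against 0 with pseudocount 1 or a mean of at least 1 FPKM and 3 (Lamc3, Itga2b and Lama3) under quantile normalization, and it was 1 with any mouse left out. Of all genes, 10.5% were lower under the median of ratios and 11.6% under quantile normalization. Class medians for leukocyte, epithelial, and stromal and vascular genes were 2.35, 0.59 and 0.36 with pseudocount 1, 3.12, 0.71 and 0.21 under the median of ratios and 2.72, 0.43 and -0.32 under quantile normalization. The leukocyte median was 4.19 with pseudocount 0.01. With a mean of at least 1 FPKM the epithelial median was 0.79, under the stromal and vascular median of 1.17. With a mouse left out the medians of the 3 classes were 3.57 to 3.86, 1.37 to 1.55 and 0.81 to 0.94.

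Signs turned under the median of ratios and quantile normalization for Itga6 (-0.45 and -0.49), Itga7 (-0.20 and -0.47), Itga8 (-0.19 and -0.65), Itga10 (-0.047 and -0.71), Itgb8 (-0.71 and -0.75), Lama1 (-0.70 and -0.84), Lama2 (-0.022 and -0.53), Itgb1bp1 (-0.23 and -0.39) and Itgb3bp (-0.17 and -0.61), and under the latter for Lama4 (-0.18). Itgb8 was at -0.000572 with the B tags alone and at -0.13 to 0.24 with a mouse left out, and Lama1 at -0.022 to 0.099. Of these 10, Lama4 alone was called.

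Itgam minus Itgb2 was -1.34 with pseudocount 1 and 1.90 with 0.01, and Itgae minus Itgb7 was -0.96 and 0.12. In sham mice Itgam was at 0 to 0.109 FPKM and Itgae at 0.188 to 0.285 FPKM, low levels on which the value added weighs. With pseudocount 1 Itgam minus Itgal (0.82) did not pass. The B tags alone (3 against 5 mice) allow fewer than 210 splits, so the smallest p possible is above 0.00476. With them no pair passed the exact permutation test, and the smallest adjusted p was 0.0655. There, Itgal minus Itgb2 was -1.49, Itgam minus Itgal 1.87, Itgb2 minus Ptprc 0.98, Itgb2 minus Itgb1 3.47, Itgb6 minus Itgb4 -1.54, Itga6 minus Itga3 -1.81, Lama1 minus Lama5 -1.37 and Lamb1 minus Lamb2 0.44. With a mouse left out, Itgam minus Itgal was 1.61 to 2.26 and Itga6 minus Itga3 -2.05 to -1.44. No paired analysis was possible because the groups share no replicate numbers in the labels.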

Other observations

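Over the 21 genes called higher, B666 was the highest AAN mouse in 6 and the lowest in 0, and B630 was the lowest in 8 and the highest in 3. B614 was at an extreme in both directions, highest in 6 and lowest in 5. Among the 6 leukocyte subunits, B642 was highest in 3 and B630 lowest in 2. Among the laminin α chains, the share of Lama3 was 16.1% to 22.0% in sham mice against 5.62% to 15.4% in AAN mice, with B614 the AAN mouse nearest to sham.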
